A study of Mus musculus with 6 samples.

Results

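The glucocorticoid receptor gene Nr3c1, the mineralocorticoid receptor gene Nr3c2 and 8 genes of glucocorticoid supply and response were followed in ribosome footprints from mouse heart. The 8 are Hsd11b1, Zbtb16, Fkbp5, Tsc22d3, Klf9, Klf15, Sgk1 and Mt2. They were taken by symbol from a deposited table of 49585 gene rows, each of the 10 had a row, and all 10 passed the filter on low counts and were tested. A footprint is the piece of mRNA left inside a ribosome after nuclease digestion, so a gene's count reflects its mRNA level and its translation together. Hearts came from male mice labelled as 8 or 9 weeks old. The partial gravity group (PG, 3 libraries) was kept at 0.167 g in a centrifuge turning at 31 rpm with a radius of 15 cm, and the ground control group (GC, 3 libraries) was kept at 1 g. GC stands here for ground control and never for glucocorticoid. The labels describe the ground controls as C57BL/6 J mice of matched age, housed under conditions like those in orbit. Spaceflight and gravity both differ between PG and GC and cannot be told apart, since mice flown at 1 g were not analysed here. Neither mission nor animal is labelled for a library, nor whether hearts were pooled, so the spread behind each p-value may be technical.

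Glucocorticoids enter cells and bind Nr3c1, which is held in a complex of heat shock proteins and co-chaperones until hormone arrives, then moves to the nucleus and binds DNA elements near its target genes. Nr3c2 binds glucocorticoids too, and in heart muscle, where the enzyme that inactivates them is scarce, it is thought to be largely occupied by them. Hsd11b1 regenerates active hormone from its inert form inside the cell. In the heart, loss of Nr3c1 from cardiomyocytes leads to disease in mice, and the balance between the receptor pair is a known theme of cardiac stress hormone biology.

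The libraries held 2212473 to 3196070 exon reads, and Lars2 and Tmem38b together took 45.5% to 52.5% of them. Intron reads made up 65.6% to 68.7% of exon and intron reads in GC and 63.6% to 64.4% in PG. PG replicate 3 stood apart in Tmem38b, which took 23.9% of its exon reads against 9.16% to 14.8% elsewhere. Its chi-square per degree of freedom against the other PG libraries was 16.8 and 27.8. It was 4.13 to 5.43 for the other pairs within a group. This statistic takes in the reads of Lars2 and Tmem38b, so it partly restates that share and is not separate evidence. Fits without PG replicate 3 are given as well for Nr3c2, Fkbp5, Zbtb16, Klf15 and Sgk1. Counts are given as CPM, read counts per 1e+06 exon reads after TMM scaling, so 1 read was worth 0.311 to 0.482 CPM. The 10 genes had 75 (Hsd11b1) to 1074 (Zbtb16) reads over the 6 libraries. The tissue label was checked on 12 cardiomyocyte markers, none of which was at 0, and their sum was 64750 to 69580 CPM in GC and 51840 to 61370 CPM in PG. Of 12 marker lists, that list, the fibroblast list (643 to 701 CPM in GC, 602 to 619 CPM in PG) and the kidney list (41.0 to 49.2 CPM in GC, 1.91 to 17.4 CPM in PG, with Nphs1 at 0) had sums that did not overlap between the groups. The called genes on the marker lists were Actc1, Ckm, Acta2, Alb and Kap, all lower in PG, and Dkk3, higher in PG. The groups overlapped for Alb, which was at 9.15, 78.3 and 7.15 CPM in GC replicates 1, 2 and 3, so that 180 of its 222 GC reads lay in replicate 2.

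The comparison of PG with GC asks whether the receptors and their target genes had other footprint levels in mice kept at lunar gravity. Zbtb16 was called lower in PG, and no other gene of the 10 passed the test. That call was kept in 10 of 16 other settings and lost without GC replicate 3 or any 1 PG library. The authors' deposited table gives Zbtb16 a false discovery rate of 0.547. Only 4 of the 1074 exon reads of Zbtb16 crossed an exon junction. Neither receptor passed, nor did the widely used reporter genes of the pathway, Fkbp5, Tsc22d3 and Sgk1. In edgeR's quasi-likelihood test across 9124 genes, 1 of the 10 was called at an adjusted p below 0.05, against 0.581% of all tested genes. It was lower in PG, a call that 0.329% of tested genes had, and 0 of the 10 were called higher, against 0.252%. Of the 10, 2 had an unadjusted p below 0.05 (Zbtb16 and Fkbp5), against 10.4% of all tested genes. Log2 fold changes (PG minus GC) were negative for 7 of the 10, against 50.2% of tested genes, and positive for 3. Their median was -0.14, and the median over all tested genes was 0.00 (-0.0017 before rounding). GC and PG values did not overlap for 2 of the 10, both lower in PG, while 16.3% of all tested genes had no overlap in either direction and 8.25% had none with PG lower.

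**Figure D1:**
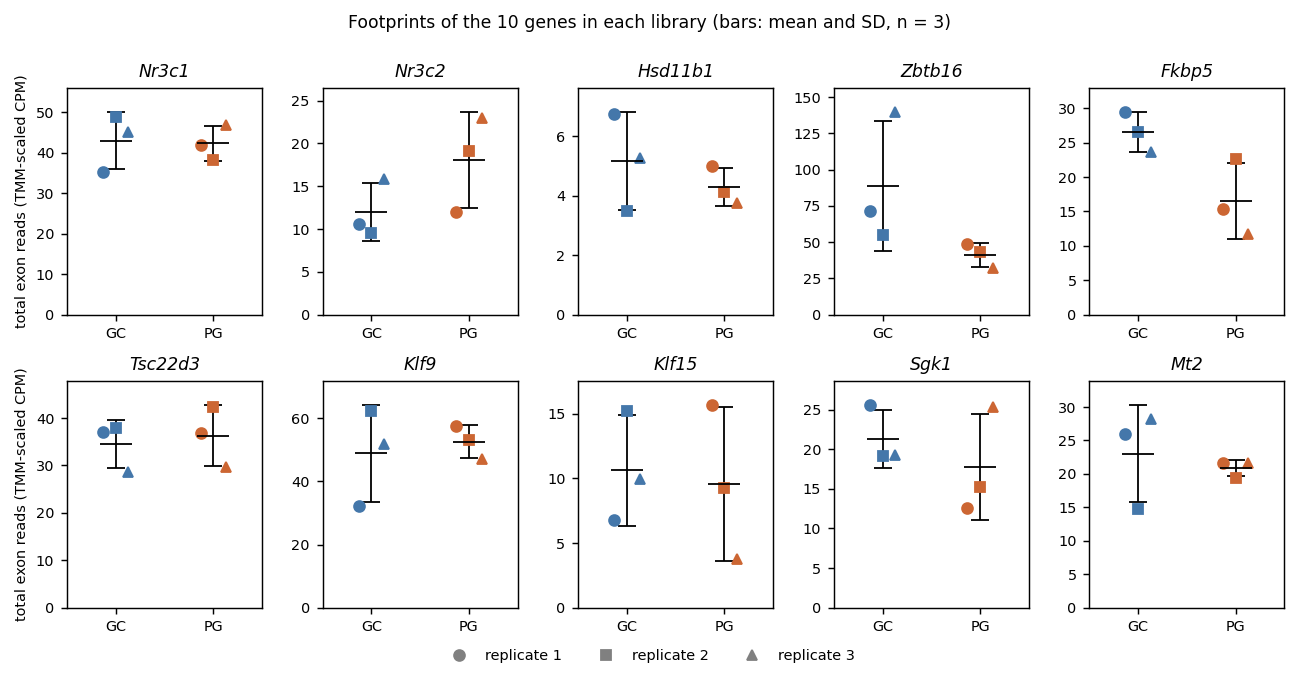
Total exon reads as TMM-scaled CPM (vertical axis, from 0) of each of the 10 genes in the 3 GC libraries (blue) and 3 PG libraries (orange), with marker shape for the replicate number and bars for the mean and SD. Zbtb16 and Fkbp5 are the only panels in which no PG point reaches the GC points, and GC replicate 3 stands at 140 CPM in the Zbtb16 panel.

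**Figure D2:**
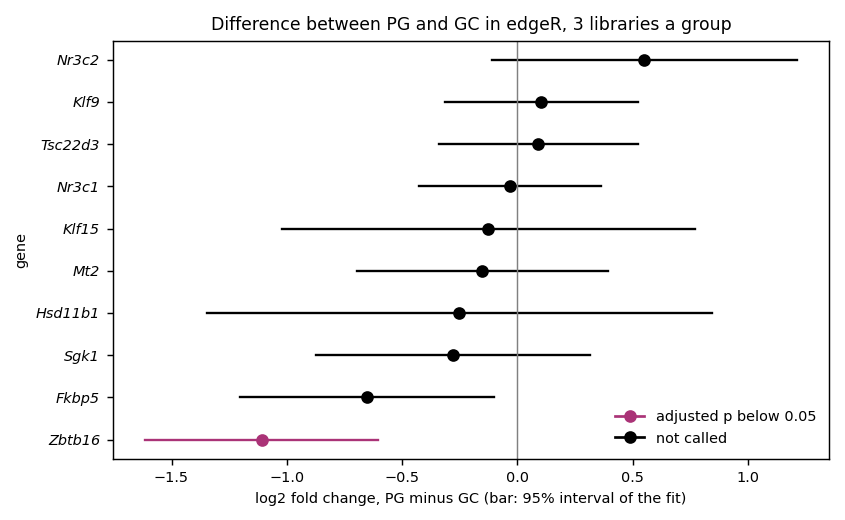
Log2 fold change of PG against GC (horizontal axis) for the 10 genes, with the 95% interval of the edgeR fit as a bar and the called gene in purple. The intervals of Zbtb16 and Fkbp5 lie below 0 and the other 8 include 0.

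Receptor footprints were measured in every library. Nr3c1, the glucocorticoid receptor, stood at 35.2, 48.7 and 45.1 CPM in GC replicates 1, 2 and 3 and at 41.9, 38.2 and 47.0 CPM in PG replicates 1, 2 and 3. The PG values lay inside the GC range. Its log2 fold change was -0.03 ± 0.19 (SE), with a 95% interval of -0.43 to 0.36, that is from 0.745 to 1.29 times the GC level, and an edgeR adjusted p of 0.976. Nr3c2, the mineralocorticoid receptor, stood at 10.6, 9.57 and 15.8 CPM in GC and 12.0, 19.1 and 23.0 CPM in PG. The highest PG libraries, replicates 2 and 3, were above all GC libraries, but PG replicate 1 lay within their range. For Nr3c2 the log2 fold change (0.55 ± 0.32, SE) had an interval of -0.11 to 1.21 and an edgeR adjusted p of 0.573, on 95 reads in GC and 145 in PG. The log2 fold change of Nr3c2 without PG replicate 3, its highest library, was 0.35 ± 0.36 (SE), with an edgeR adjusted p of 0.841. Both receptors were measured in a whole organ. Fewer cells of a type and less RNA per cell cannot be told apart there.

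Per kilobase of exon, Nr3c1 was above Nr3c2 in each of the 6 libraries. The ratio of Nr3c1 to Nr3c2 in CPM per kilobase was 2.89, 4.44 and 2.48 in GC replicates 1, 2 and 3 and 3.05, 1.74 and 1.78 in PG replicates 1, 2 and 3. The means were 3.27 ± 1.03 in GC and 2.19 ± 0.745 in PG (SD, n = 3), and the exact permutation test, two-sided, gave p = 0.30, where 3 against 3 cannot go below 0.10. The groups overlapped through PG replicate 1, whose ratio was higher than those of GC replicates 1 and 3.

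Hsd11b1, the enzyme that regenerates active hormone, was the least covered of the 10. Its total exon reads were 14, 8 and 17 in GC and 15, 13 and 8 in PG, or 5.17 ± 1.63 CPM against 4.29 ± 0.632 CPM (SD, n = 3). The log2 fold change was -0.25 ± 0.53 (SE), with an interval of -1.35 to 0.84 and an edgeR adjusted p of 0.917, so a change of 1.79-fold upward and a larger one downward lie inside it. Only 14 of its 75 exon reads fitted a single place. These 14 lay in GC replicate 1 (7 reads), GC replicate 2 (1 read) and PG replicates 2 and 3 (3 reads each). In each library their number equalled that of the gene's reads across an exon junction. Whether they are the same reads cannot be told from counts. Hsd11b1 is also a gene of liver, kidney and fat. The liver markers summed to 41.9 to 217 CPM in GC and 27.4 to 48.9 CPM in PG, the kidney sums were those given above, and the adipocyte markers summed to 13.1 to 23.1 CPM in GC and 14.1 to 18.6 CPM in PG with Ucp1 at 0. Their part in the Hsd11b1 values was not tested.

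Around that enzyme, a list of 13 genes for steroid metabolism and transport had 3 genes with enough reads to test, and 0 passed in edgeR (0 also at an unadjusted p below 0.05). The log2 fold change of H6pd, which supplies the cofactor that Hsd11b1 uses, was 0.32 ± 0.22 (SE), and that of the drug and steroid exporter gene Abcb1a was -0.04 ± 0.41. The polyprenol and steroid reductase gene Srd5a3 had -0.25 ± 0.58. Hsd11b2, the enzyme that inactivates glucocorticoids in the kidney, had 0 reads in all 6 libraries, which allows up to 0.189 CPM over the libraries together (3 counts, counting error only). The adrenal enzymes Cyp11b1, Cyp11b2, Cyp21a1 and Hsd3b1, the reductase gene Akr1d1 and Serpina6, the corticosteroid carrier of blood, were at 0 as well, with the same limit.

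Fkbp5, a co-chaperone that lowers the receptor's affinity for hormone and is itself induced by the receptor, lies on chromosome 17 (28399095 to 28517524 in the table's coordinates). It stood at 29.4, 26.5 and 23.6 CPM in GC replicates 1, 2 and 3 and at 15.3, 22.6 and 11.7 CPM in PG replicates 1, 2 and 3. No PG library reached the lowest GC library, but PG replicate 2 and GC replicate 3 were 22.6 against 23.6 CPM. The log2 fold change was -0.65 ± 0.27 (SE), with an interval of -1.20 to -0.10, an unadjusted p of 0.0223 and an adjusted p of 0.379 in edgeR, so Fkbp5 did not pass. The authors' deposited table gives Fkbp5 a p-value of 0.0241 and a false discovery rate of 1. Its 340 exon reads all fitted a single place. The fold change was negative in each of 16 other settings, from -0.95 without PG replicate 2 to -0.47 without PG replicate 3. Fkbp5 was called in none of them. Its unadjusted p in edgeR was 0.0985 without PG replicate 3 and 0.0686 without PG replicate 1. It was 0.0585 without GC replicate 1 and 0.0602 with library size alone. DESeq2 gave an unadjusted p of 0.0574 and no adjusted p. In the remaining settings the unadjusted p was below 0.05.

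The other chaperones of the receptor complex were measured as a list of 12, all of them tested. In edgeR 0 passed, 1 was lower at an unadjusted p below 0.05 (10.4% of all tested genes had such a p in either direction), and the list's median log2 fold change was -0.05. That single gene was Fkbp4, the co-chaperone that competes with Fkbp5 for the receptor, at 271 ± 56.2 CPM in GC and 191 ± 5.93 CPM in PG (SD, n = 3), a log2 difference of -0.50 ± 0.14 (SE; edgeR adjusted p 0.128). Fkbp4 passed in 3 of 16 other settings, with an adjusted p of 0.0245 in DESeq2, 0.0389 without a filter on low counts and 0.0261 without GC replicate 3 (the last 2 in edgeR). The most abundant, Hsp90ab1 (0.04 ± 0.13) and Hspa8 (0.02 ± 0.14), had log2 fold changes near 0.

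Among 16 tested coregulators, the proteins that the bound receptor recruits to chromatin, 0 passed in edgeR, an unadjusted p below 0.05 was reached by 2 in the higher and 0 in the lower direction (10.4% of all tested genes in either), and the log2 fold change was positive for 11 of 16, with 0.23 as the median. GC and PG did not overlap for 4 of the 16, against 16.3% of all tested genes, and the list's summed level was 478 to 501 CPM in GC and 546 to 585 CPM in PG, also without overlap. Ncor1, a corepressor, was at 47.5 ± 11.1 CPM in GC and 68.5 ± 4.84 CPM in PG (SD, n = 3), a log2 fold change of 0.53 ± 0.18 (SE) with an edgeR adjusted p of 0.251. For the acetyltransferase gene Crebbp the log2 fold change was 0.51 ± 0.18 (SE), with an edgeR adjusted p of 0.287.

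Zbtb16 encodes a zinc finger transcription factor, also known as PLZF, that is among the genes most strongly induced by glucocorticoids in several tissues. It lies on chromosome 9 (48654297 to 48836222 in the table's coordinates). It stood at 71.3, 55.3 and 140 CPM in GC replicates 1, 2 and 3 and at 48.6, 43.3 and 31.9 CPM in PG replicates 1, 2 and 3. All PG libraries were below all GC libraries, and GC replicate 3, with 449 of the 724 GC reads, was far above the other 5 libraries. The means were 88.7 ± 44.8 CPM in GC and 41.3 ± 8.50 CPM in PG (SD, n = 3), 2.16-fold lower in PG with a log2 fold change of -1.11 ± 0.24 (SE), an interval of -1.61 to -0.605 and an edgeR adjusted p of 0.0321. The authors' deposited table gives Zbtb16 a 2.14-fold lower level in PG with a p-value of 0.002 and a false discovery rate of 0.547.

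The call of Zbtb16 was lost in 4 of 6 fits with a library left out. Leaving out GC replicate 3 moved the log2 fold change to -0.60 ± 0.21 (SE), with an unadjusted p of 0.00919 and an adjusted p of 0.189 (edgeR). Without PG replicates 1, 2 and 3 the log2 fold change was -1.24, -1.14 and -0.97. The adjusted p was 0.0514, 0.110 and 0.145 in those fits (edgeR). Without GC replicate 1 or 2 Zbtb16 was still called, with adjusted p-values of 0.0203 and 0.0169 (edgeR). With library size alone as the scaling the adjusted p was 0.0738 (edgeR), on a log2 fold change of -1.04. Zbtb16 is also expressed in some innate lymphocytes, and the macrophage and leukocyte markers summed to 332 to 387 CPM in GC and 239 to 336 CPM in PG. The part of these markers and of the cardiomyocyte markers above in the Zbtb16 result was not tested.

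**Figure D3:**
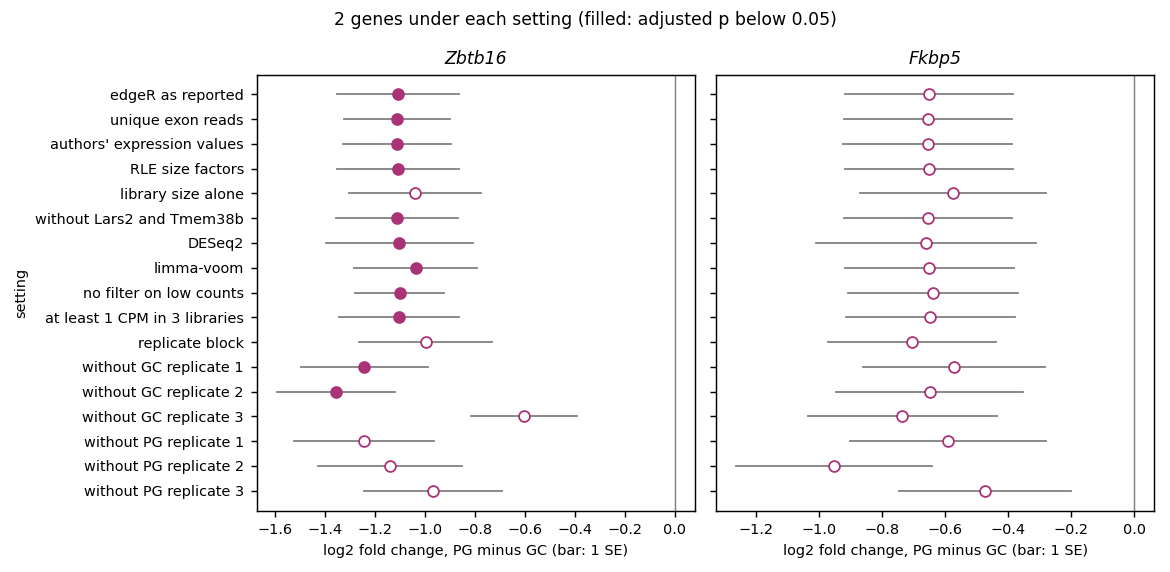
Log2 fold change of PG against GC (horizontal axis, bar 1 SE) for Zbtb16 and Fkbp5 in the reported edgeR fit and under 16 other settings (vertical axis), filled where the adjusted p is below 0.05. Zbtb16 is filled in the reported fit and in 10 of the 16 other settings and moves to -0.60 without GC replicate 3, while Fkbp5 is filled in none.

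The Krüppel-like factors, transcription factors that the receptor induces, were both within the spread of the libraries. Klf9, which in brain and other tissues is a direct and rapid target, stood at 32.3, 62.2 and 51.9 CPM in GC and 57.6, 53.2 and 47.0 CPM in PG. The PG values lay inside the wider GC range, in which replicate 1 was low. Its log2 fold change was 0.10 ± 0.20 (SE), with an interval of -0.31 to 0.52 and an edgeR adjusted p of 0.910. Klf15, a regulator of amino acid and lipid use in the heart, stood at 6.74, 15.2 and 9.94 CPM in GC and 15.6, 9.23 and 3.76 CPM in PG. PG replicate 1 was the highest of the 6 libraries and PG replicate 3, with 8 reads, the lowest, so the groups overlapped in full. Its log2 fold change was -0.13 ± 0.43 (SE), with an interval of -1.02 to 0.77, and it became 0.20 without GC replicate 2 and 0.22 without PG replicate 3. The coefficient of variation of Klf15 within PG was 62.3%, where counting error alone gives 18.9% at its mean read number.

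A list of 17 amino acid and lipid genes linked to Klf15 was tested in full, and 0 passed in edgeR, with 1 higher and 3 lower at an unadjusted p below 0.05 (10.4% of all tested genes in either direction) and a median log2 fold change of -0.12. GC and PG did not overlap for 7 of the 17, against 16.3% of all tested genes. The fatty acid binding protein gene Fabp3 had -0.25 ± 0.12 (SE) with an edgeR adjusted p of 0.446. The fatty acid transporter gene Cd36 had 0.08 ± 0.12 and Hadha, an enzyme of beta-oxidation, 0.23 ± 0.13.

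Tsc22d3, also called GILZ, an anti-inflammatory mediator of glucocorticoids, stood at 37.1, 37.9 and 28.6 CPM in GC and 36.9, 42.3 and 29.6 CPM in PG. The groups covered nearly the same range. Its log2 fold change was 0.09 ± 0.21 (SE), with an interval of -0.34 to 0.52, that is from 0.790 to 1.44 times the GC level, and an edgeR adjusted p of 0.928.

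Sgk1, a kinase induced through both receptors that acts on ion channels and transporters, lies on chromosome 10 (21882184 to 21999903 in the table's coordinates). RefSeq promoter windows (GRCm38.p6, 250 bases before to 50 bases after an annotated start) were held for 8 of the 10 genes, in 15 windows. The consensus glucocorticoid response element, TGTTCT preceded by its reverse complement AGAACA with 3 bases between them, was found in 1 of the 15, in front of 1 of the 6 annotated starts of Sgk1. In all, 3 of 32851 windows held it, or 0.00913%. A looser form, GNACA and TGTNC with 3 bases between them, was found in the same Sgk1 window and in no other window of the 10 genes, against 0.475% of all windows. Both forms read the same on either strand and overlap in Sgk1. The 250 bases before that start (chr10:21993640-21993889, plus strand) are shown because they hold the only such element found near a start of the 8 genes, with the palindrome in capitals, 189 bases before the start:
Sgk1: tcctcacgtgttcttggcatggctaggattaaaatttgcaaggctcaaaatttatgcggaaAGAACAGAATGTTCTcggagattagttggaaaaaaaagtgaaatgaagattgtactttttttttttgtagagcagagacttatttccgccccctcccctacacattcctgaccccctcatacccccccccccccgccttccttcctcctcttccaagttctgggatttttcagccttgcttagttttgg

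A match of letters is not a measured binding site, and these windows say nothing of elements farther from the starts. Footprints of Sgk1 were at 25.5, 19.1 and 19.3 CPM in GC and 12.6, 15.3 and 25.4 CPM in PG. PG replicates 1 and 2 were below all GC libraries, and PG replicate 3 was close to the highest. The log2 fold change was -0.28 ± 0.29 (SE), with an interval of -0.87 to 0.31 and an edgeR adjusted p of 0.803. It was -0.60 ± 0.30 without PG replicate 3, with an edgeR adjusted p of 0.566. Of 13 tested regulators and substrates of the kinase, 0 passed in edgeR and 0 had an unadjusted p below 0.05, with a median log2 fold change of 0.11. The most abundant was Ndrg2 (0.09 ± 0.12, SE), a known substrate of the kinase.

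Mt2 encodes a metallothionein, a small cysteine-rich protein that binds zinc and is induced by both metals and glucocorticoids. It lies on chromosome 8 (94172664 to 94173568 in the table's coordinates). The start meant below is RefSeq's, 94172618, which lies upstream of the table's start. Its RefSeq window held 4 core metal response elements (TGCACNC or TGCGCNC, either strand, no overlap), a number reached by 0.518% of all windows, and 25.7% of all windows held at least 1. The 250 bases before the start (chr8:94172368-94172617, plus strand) are shown because they carry the second kind of control that Mt2 is known for, with 3 of the 4 elements in capitals, the other lying past the start:
Mt2: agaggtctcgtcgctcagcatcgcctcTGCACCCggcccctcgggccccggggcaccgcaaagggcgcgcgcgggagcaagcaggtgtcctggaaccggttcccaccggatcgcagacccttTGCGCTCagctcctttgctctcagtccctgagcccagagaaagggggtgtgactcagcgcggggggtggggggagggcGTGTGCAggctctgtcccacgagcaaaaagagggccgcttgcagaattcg

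Mt2 stood at 26.0, 14.8 and 28.3 CPM in GC and 21.6, 19.4 and 21.6 CPM in PG. The PG values were close together and inside the GC range. The log2 fold change was -0.15 ± 0.26 (SE), with an interval of -0.70 to 0.39 and an edgeR adjusted p of 0.897. Only 59.3% of its reads fitted a single place, and on those 208 reads the log2 fold change was -0.55 ± 0.35 (SE) with an edgeR adjusted p of 0.617, a larger difference than on all reads. The authors' deposited table gives Mt2 a 1.45-fold lower level in PG with a p-value of 0.179. The neighbouring metallothionein gene Mt1, whose 2212 reads were all unique, stood at 188, 154 and 130 CPM in GC and 142, 121 and 113 CPM in PG. Its groups overlapped through GC replicate 3 and PG replicate 1, and its log2 fold change was -0.32 ± 0.15 (SE) with an unadjusted p of 0.0439 and an adjusted p of 0.458 in edgeR. Of 7 tested genes for metallothioneins and zinc handling, Mt1 included, 0 passed in edgeR and 1 had an unadjusted p below 0.05. The zinc transporter genes Slc39a14 and Slc39a1 had log2 fold changes of 0.20 ± 0.17 and -0.11 ± 0.18 (SE).

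Of a further 37 known targets of the receptor, Mt1 among them, 30 had enough reads to test. The kinase gene Pdk4, which restrains pyruvate use, and the cell cycle inhibitor gene Cdkn1a fell, and 28 did not pass, where 0.329% of all tested genes were called lower and 0.252% higher. An unadjusted p below 0.05 was reached in edgeR by 3 with higher and 4 with lower levels in PG, against 10.4% of all tested genes in either direction. The list went mostly the other way from its called genes: log2 fold changes were positive for 22 of the 30 and negative for 8, where 50.2% of all tested genes were negative, and their median was 0.10. Pdk4 stood at 309, 346 and 325 CPM in GC and 148, 128 and 82.2 CPM in PG, a log2 fold change of -1.44 ± 0.16 (SE). Cdkn1a stood at 90.1, 74.0 and 56.9 CPM in GC and 24.9, 16.2 and 23.5 CPM in PG, a log2 fold change of -1.77 ± 0.21. Neither gene's groups overlapped, and both were called in each of 16 other settings, with edgeR or DESeq2 or limma-voom adjusted p-values of at most 0.00103. Both are also known to respond to signals other than glucocorticoids, Pdk4 to fatty acids and Cdkn1a to p53. The most abundant targets, Ndrg2, given above, and the glutamine synthetase gene Glul (0.20 ± 0.14), did not pass.

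**Figure D4:**
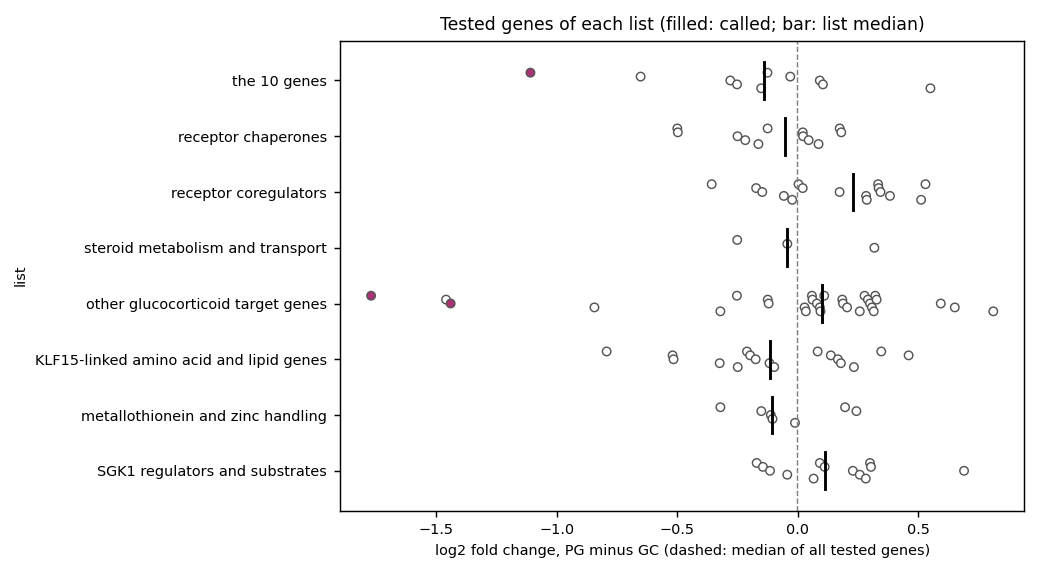
Log2 fold change of PG against GC (horizontal axis) of every tested gene of the 10 and of the 7 related lists (vertical axis), with called genes filled, list medians as black bars and the median of all tested genes as a dashed line. Called genes appear in 2 lists, Zbtb16 among the 10 and Pdk4 and Cdkn1a among the other targets, and medians run from -0.14 for the 10 genes to 0.23 for the coregulators.

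Levels of the 10 genes were compared with each other per length, as CPM per kilobase of exon averaged over the 6 libraries. The most abundant genes of the lists above were picked by mean CPM, with no correction for length. Exon length here takes in untranslated sequence, where few footprints fall, so genes with long untranslated regions are placed too low. On all exon reads, Mt2 was highest at 37.3 ± 8.13 (SD, n = 6), above 93.5% of all tested genes, and above Klf9 at 15.5 ± 3.19 in each library with no overlap of ranges. On unique reads alone Mt2 was at 21.7 ± 8.74 (13.6 to 35.4), overlapped Klf9 (9.89 to 19.1, all reads unique) and was above it in 3 of 6 libraries. On all exon reads, Zbtb16 followed at 12.3 ± 7.34 and overlapped with both neighbours, Klf9 and Tsc22d3 (8.15 ± 1.22). Nr3c1, at 5.75 ± 0.707, lay below Tsc22d3 in each library and above 62.2% of all tested genes. Sgk1 (3.99 ± 1.06), Klf15 (3.61 ± 1.68), Fkbp5 (3.38 ± 1.06), Nr3c2 (2.32 ± 0.816) and Hsd11b1 (1.82 ± 0.465) came next. On all exon reads each overlapped with its neighbour in the order. On unique reads alone Hsd11b1 was at 0.396, and its range lay below that of Nr3c2 (1.479 to 3.554) without overlap. The median of all tested genes was 3.91, so 6 of the 10 lay above it.

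**Figure D5:**
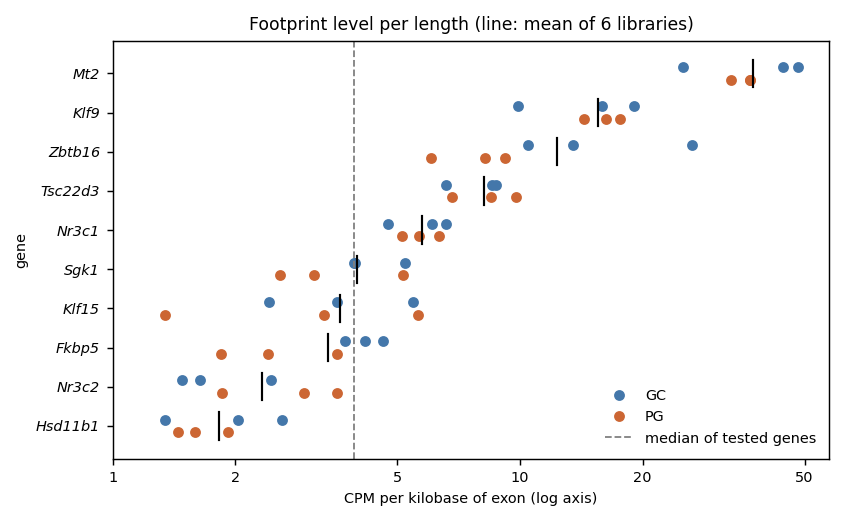
Total exon reads as CPM per kilobase of exon on a log axis for the 10 genes in order of their mean, with a point for each GC library (blue) and PG library (orange), a black line for the mean of 6 libraries and a dashed line for the median of all tested genes, 3.91. On these reads, of which 59.3% are unique in Mt2, Mt2 lies at 25.2 to 48.1 (13.6 to 35.4 on unique reads, not drawn), and the lower 5 genes overlap with their neighbours. In Hsd11b1 18.7% of these reads are unique, and on unique reads (not drawn) it does not overlap with Nr3c2.

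Read classes differed among the 10 in ways that bear on how far each count can be read as spliced, coding mRNA. Of the 10, 8 had over 90% unique exon reads, the exceptions being Mt2 (59.3%) and Hsd11b1 (18.7%). Reads across an exon junction made up 12.1% of exon reads in the median tested gene. They made up 18.7% in Hsd11b1, 17.1% in Mt2 and 12.0% in Sgk1. The share was 5.88% in Fkbp5, 5.18% in Nr3c1, 4.80% in Tsc22d3, 2.5% in Nr3c2 and 1.21% in Klf15. It was 0.372% in Zbtb16, 4 of 1074 reads, and Klf9 had none among 817. The shares were not adjusted for the number of junctions or the exon sizes of a gene, so they do not compare genes on an equal footing. Zbtb16 also had 140 intron reads, all unique, numbering 23, 15 and 52 in GC and 11, 25 and 14 in PG. On the CPM scale of the exon reads these were 11.1, 6.53 and 16.2 in GC and 3.66, 7.96 and 6.57 in PG, so GC replicate 3 was highest in Zbtb16 introns as in its exons.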

How the data were processed

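Ribosome footprints of 6 heart libraries, 3 GC and 3 PG, were read from 1 deposited table of 49585 rows. Per the file headers, the authors gave, per gene and library, counts of total and unique exon reads, exon-exon reads and intron reads, and a test of PG against GC named EDGE with p-values and a signed fold change, a score that is negative where PG is lower. The exon length and coordinates are also theirs (starts shifted to count from 1). The table holds 87 other columns of per-library values, which were left aside. The sources used here do not name the aligner, counter or strand setting; GRCm38 and mm10 are builds named in the submitters' processing notes.

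For total exon reads the test was edgeR's quasi-likelihood test, version 4.0.16, under R 4.3.3 (filterByExpr with a minimum count of 10, TMM, glmQLFit, glmQLFTest) on 9124 of 16855 genes with a read, group as the only term, Benjamini-Hochberg adjusted over all of them, threshold 0.05. Standard errors come from the F statistic and intervals are 95%. The code was tested on simulated counts. Alternatives used DESeq2 1.42.0, limma 3.58.1 (voom), other reads, scalings, filters, a replicate block and each library left out. The genes, lists and tests were chosen with earlier results of these data known. Named were all 10 genes, called list genes and up to 3 abundant genes of each of 7 pathway lists, some of which are not reported here; the Zbtb16 and Nr3c2 intron reads were picked after their values were seen. Promoter windows are RefSeq's (GRCm38.p6). All pairs of libraries within a group differed beyond sampling noise. Reads are not corrected for PCR duplicates, so limits cover counting error only.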

Additional observations from a re-analysis of the deposited data

How the results depend on the processing

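The call of Zbtb16 alone among the 10 genes was kept in 8 of 10 other settings; the count was 0 with library size alone and 0 with the replicate block, where the log2 fold change of Zbtb16 was -0.998 (edgeR adjusted p 0.202), and 0 to 1 with a library left out. Over all tested genes, same-numbered libraries showed no correlated deviations (correlations of -0.009, -0.033 and -0.015). With 3 libraries a group this cannot exclude a shared mission or day, which the labels do not give. The 53 called genes became 90 on unique exon reads, 88 on the authors' expression values, 120 in DESeq2, 80 in limma-voom, 181 without a filter, 22 with the replicate block and 19 to 102 with a library left out. Library size alone turned the split from 23 higher and 30 lower to 25 and 16. The 2 called targets (Pdk4, Cdkn1a) became 3 on unique exon reads, authors' expression values and DESeq2, with 1 higher in PG each. Called targets were 4 without a filter, 2 higher and 2 lower, and 2 to 3 with a library left out. Signs turned for Nr3c1 (0.0203) with library size alone, Hspa8 (-0.0655) on unique reads, and Abcb1a with library size alone (0.0245), limma-voom (0.0602) and the replicate block (0.10). With a library left out, log2 fold changes that changed sign ran from -0.15 to 0.0596 (Nr3c1), -0.0392 to 0.21 (Tsc22d3), -0.11 to 0.30 (Klf9), -0.67 to 0.22 (Klf15), -0.39 to 0.0361 (Mt2), -0.0839 to 0.17 (Hsp90ab1), -0.12 to 0.11 (Hspa8), -0.38 to 0.61 (Abcb1a) and -0.23 to 0.0936 (Slc39a1). The causes were not tested. Hsd11b1 was too rare to test on unique reads or expression values, and DESeq2 gave no adjusted p for 7 of the 10.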

Other observations

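Nr3c2 was the gene of the 10 with the largest share of intron reads, and this was noticed after its values were seen. Intron reads made up 37.1%, 48.8% and 40.7% of its exon and intron reads in GC replicates 1, 2 and 3 and 18.2%, 11.8% and 29.0% in PG replicates 1, 2 and 3. The groups did not overlap in this share, on 69 intron reads in GC and 36 in PG, beside 95 and 145 exon reads. In CPM its intron reads were 6.26, 9.14 and 10.9 in GC and 2.66, 2.55 and 9.39 in PG, which overlap. The intron share over all genes did not overlap either and was also lower in PG, at 68.7%, 65.6% and 66.8% in GC and 64.4%, 64.0% and 63.6% in PG. The difference in the Nr3c2 share was not tested.

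No library was the lowest or the highest for most of the 10 genes. PG replicate 3 was lowest for Zbtb16, Fkbp5 and Klf15 and highest for Nr3c2. GC replicate 3 was highest for Zbtb16 and Mt2 and lowest for Tsc22d3. The 10 genes summed to 281, 293 and 367 CPM in GC and 267, 267 and 245 CPM in PG. Without Zbtb16 the sums were 210, 238 and 228 CPM in GC and 219, 224 and 213 CPM in PG, which overlap.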
